A study of Homo sapiens with 8 samples.

Results

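The eCLIP peaks of IGF2BP1 around the stop codon were those that overlapped, by at least 1 nt, on the same strand and within exons, the stretch from 100 nt before to 100 nt after the end of the stop codon, counted on the spliced transcript. The transcripts were those that GENCODE v44 marks as MANE Select, which gives 1 reference transcript a gene, and 19061 of them held a stop codon. Of 22311 peaks from DMSO-treated cells, 1642 lay there (7.36%, 95% Wilson interval 7.02 to 7.71%), and so did 1642 of 22123 peaks from AVJ16-treated cells (7.42%, 7.08 to 7.78%), together 3284 of 44434. The equal counts were a coincidence of the window, since other windows gave unequal ones. They belonged to 1189 genes in the DMSO list and 1124 in the AVJ16 list, 1527 in either and 786 in both.

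The study asked where IGF2BP1 sits on RNA in H1299, an established human non-small cell lung cancer line labelled wild type, and how AVJ16, a small molecule that binds IGF2BP1, changes this. Cells were given 1.5 uM AVJ16 or 0.01% DMSO for 24 h, crosslinked at 400 mJ/cm2 with 254 nm light, and IGF2BP1 was immunoprecipitated. Each treatment had 2 IP libraries and 2 size-matched input (SMInput) libraries, 8 in all, prepared in 2 batches from a single thaw of cells. Each deposited list holds both replicates of a treatment merged, so a value has no replicate error, the depth is unknown, no test between treatments was possible, and batch could not be examined. Intervals below cover counting error over peaks only, and peaks are not replicates of a treatment. A difference between the lists is therefore a difference between 2 merged lists.

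IGF2BP1 is an RNA-binding protein with RRM and KH domains that is known for binding 3'UTRs, the untranslated ends of mRNAs, and for protecting bound mRNAs from decay. At the stop codon the ribosome ends translation and the protein is released by termination factors. On the coding side an RNA is swept by ribosomes, and on the 3'UTR side it is not. The methylated base m6A, which IGF2BP proteins have been described to read in GGAC-type sequences, is known to be frequent around stop codons. A peak's value here is its log2 fold enrichment of IP over SMInput, and both lists held only peaks above 3 on that scale.

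The sequences below run from 60 nt before the end of the stop codon to 30 nt after it, 5' to 3' in GENCODE v44 transcripts on GRCh38, with the stop codon in capitals. They are shown because a peak spanned the stop codon of each of these genes in at least 1 list and because these genes carry the results that follow. A coordinate range wider than 90 nt spans an intron, which the sequence leaves out.
SEC31A, chr4:82819044-82819133, minus strand: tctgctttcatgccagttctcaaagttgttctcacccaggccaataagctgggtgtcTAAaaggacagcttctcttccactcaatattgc
FBXO7, chr22:32498471-32498560, plus strand: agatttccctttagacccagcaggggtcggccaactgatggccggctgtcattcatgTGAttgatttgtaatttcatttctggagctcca
CCNG1, chr5:163442506-163443700, plus strand: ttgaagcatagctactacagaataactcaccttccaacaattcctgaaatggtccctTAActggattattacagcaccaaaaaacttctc
LIFR, chr5:38481565-38481654, minus strand: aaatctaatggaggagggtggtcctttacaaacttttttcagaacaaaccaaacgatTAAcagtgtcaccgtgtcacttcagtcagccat
FN1, chr2:215361525-215361614, minus strand: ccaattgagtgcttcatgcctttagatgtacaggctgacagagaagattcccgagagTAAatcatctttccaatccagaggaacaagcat
EEF2, chr19:3976524-3976613, minus strand: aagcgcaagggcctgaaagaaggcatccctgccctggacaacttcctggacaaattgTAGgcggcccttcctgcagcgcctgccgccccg
LGR4, chr11:27367837-27367926, minus strand: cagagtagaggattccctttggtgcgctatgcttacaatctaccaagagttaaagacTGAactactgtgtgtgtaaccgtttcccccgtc
CTNNB1, chr3:41239283-41239372, plus strand: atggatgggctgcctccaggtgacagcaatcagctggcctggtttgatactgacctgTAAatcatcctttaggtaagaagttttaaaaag
GNG5, chr1:84498538-84501904, minus strand: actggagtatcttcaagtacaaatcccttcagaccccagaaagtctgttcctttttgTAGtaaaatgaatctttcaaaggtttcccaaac
GNG5B, chrX:110346673-110346762, minus strand: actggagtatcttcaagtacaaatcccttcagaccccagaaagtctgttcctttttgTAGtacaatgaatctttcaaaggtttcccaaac
Of these stretches, FBXO7 held TCATTC, SEC31A held GGAC and CCNGTT (N is any base), EEF2 held GGAC, and FN1 and CTNNB1 held TCCAG. CCNG1, LIFR, LGR4, GNG5 and GNG5B held none of the 6 motifs that were searched. The stretches of GNG5 and its near-identical copy GNG5B differed at 1 of 90 positions, so reads of this pair can be hard to assign.

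Peaks were far denser after the stop codon than before it, and their density climbed through the stop codon without a local maximum there. Over transcripts with an exonic peak, the share of bases inside a DMSO peak was 3.17% from 500 to 100 nt before the stop codon, 5.06% in the last 100 nt of coding sequence, 12.4% in the first 100 nt of the 3'UTR and 20% in the next 100 nt. The AVJ16 values for the same zones were 4.08%, 6.19%, 12.5% and 19.5%. In 20 nt steps the DMSO share was 6.15% just before the end of the stop codon, 7.78% just after it and 16.7% by 80 to 100 nt. It was highest at 160 to 180 nt (20.7%), and the AVJ16 share at 140 to 160 nt (19.9%). From 500 to 1000 nt it was 13.9% and 14.2%.

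**Figure D1:**
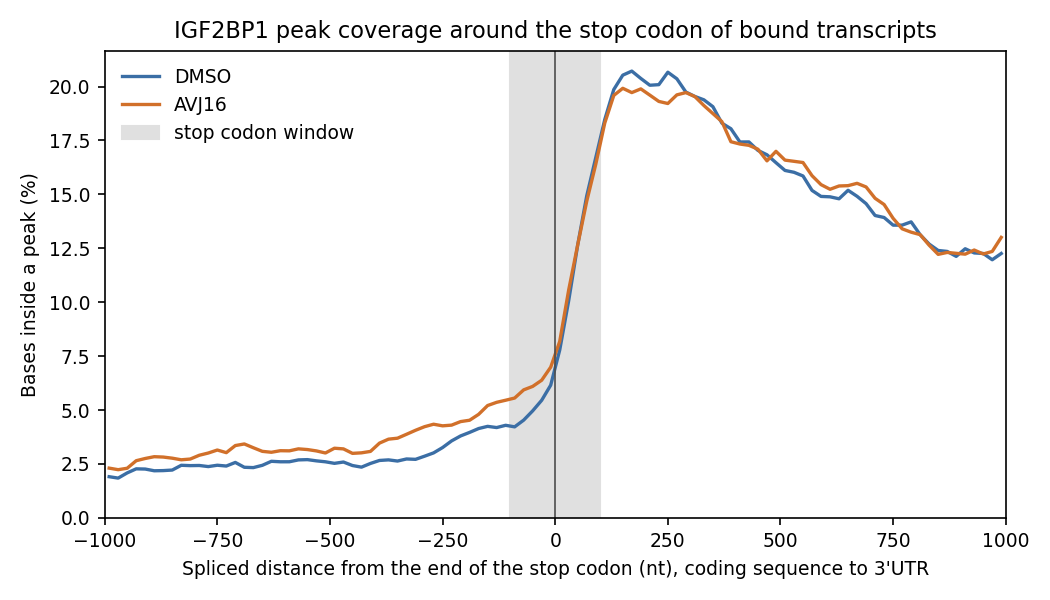
Share of transcript bases inside an IGF2BP1 peak (%) in 20 nt steps against the spliced distance from the end of the stop codon (nt), for MANE Select transcripts with an exonic peak in that list. Both lines climb steadily across the shaded window of 100 nt on each side, from 6.15% (DMSO) and 6.99% (AVJ16) just before the end of the stop codon, and the AVJ16 line lies above the DMSO line on the coding side.

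The lists differed on the coding side. Over the 3718 transcripts with an exonic peak in both lists, AVJ16 peaks covered 6.62% and DMSO peaks 5.79% of the last 100 nt of coding sequence. On the 3'UTR side the order was the opposite, 13.6% and 14.0%, but not in every class of 3'UTR length. In the 2022 of these transcripts with a 3'UTR of 2000 nt or more, AVJ16 peaks covered 11.0% and DMSO peaks 10.5% there. Of the members, 356 AVJ16 peaks (21.7%, 19.8 to 23.7%) and 293 DMSO peaks (17.8%, 16.1 to 19.8%) lay on coding bases alone. Peaks on 3'UTR bases alone numbered 982 (59.8%) and 1043 (63.5%), and peaks with bases on both sides 304 (18.5%) and 306 (18.6%). The stop codon itself was overlapped by 320 DMSO peaks (19.5%) and 322 AVJ16 peaks (19.6%), and there the lists were level. The AVJ16 list was also denser further upstream in the coding sequence of the 3718 transcripts, 4.40% against 3.66% for 500 to 100 nt before the stop codon. The difference on the coding side was therefore not limited to the window.

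Among genes with an exonic peak, a peak in the window was more frequent where the 3'UTR was short, which the window then fills to a larger part. Among transcripts bound in both lists, 161 of 280 with a 3'UTR under 500 nt had a DMSO peak in the window (57.5%, 51.6 to 63.2%), compared with 458 of 1416 from 500 to 2000 nt (32.3%) and 435 of 2022 with a longer one (21.5%, 19.8 to 23.4%). The AVJ16 shares were 56.4%, 30.9% and 22.6%. With a short 3'UTR, DMSO peaks covered 34.0% of the first 100 nt after the stop codon and AVJ16 peaks 30%. With a 3'UTR of 2000 nt or more they covered 10.5% and 11.0%. How much of this order the window itself sets was not tested, and RNA levels are not in these lists.

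The median peak was 73 nt long in the DMSO list and 69 nt in the AVJ16 list, and 61.0% and 56.6% of the peaks reached beyond the window. Their centres had a median of 63.5 nt and 55 nt after the stop codon. A single peak was found in 877 of the DMSO genes, 2 peaks in 217 and 3 or more in 95, and the AVJ16 counts were 780, 236 and 108. In only 219 genes (18.4%) did all exonic DMSO peaks lie at the stop codon, and in 186 (16.5%) all exonic AVJ16 peaks. Of genes with several exonic peaks, the most enriched one was at the stop codon in 270 of 1008 (26.8%) and 240 of 964 (24.9%).

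Enrichment at the stop codon stood between that of the rest of the coding sequence and that of the rest of the 3'UTR. The median log2 fold enrichment of the DMSO peaks was 3.61 there, 3.46 in other coding sequence and 3.71 in other 3'UTRs, and of the AVJ16 peaks 3.51, 3.45 and 3.67. Within the window it was higher towards the 3'UTR. DMSO medians were 3.48 (3.41 to 3.55) on the coding side, 3.59 (3.497 to 3.69) for peaks on both sides and 3.64 (3.60 to 3.69) on the 3'UTR side. AVJ16 medians were 3.41, 3.46 and 3.56. A value of 4 or more was reached by 27.2% of the DMSO and 20.7% of the AVJ16 stop codon peaks. The quartiles were 3.28 and 4.06 in DMSO and 3.22 and 3.90 in AVJ16.

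The most enriched DMSO peaks belonged to genes of varied function. GNG5, a G protein gamma subunit, led with 6.29 at 85 to 122 nt after the stop codon, where the AVJ16 value was 5.03. STARD7, a lipid transfer protein, had 6.22 in DMSO and 4.70 in AVJ16 at 95 to 128 nt. IFT52, an intraflagellar transport protein, had 5.82 and 4.38, and this was its 1 exonic peak in each list. All 3 were lower in the AVJ16 list. SLC25A5, an ADP/ATP carrier of mitochondria, had 5.67 in DMSO and 4.78 in AVJ16, and EML1, a microtubule-associated protein, 5.54 and 4.28. RPL39, a ribosomal protein, had 5.87 and 5.93, so its values nearly matched. FTL, the ferritin light chain, had 5.62 in DMSO on coding bases 83 to 36 nt before the end of the stop codon, and 6.48 in AVJ16, the highest value in that list. Of the 10 most enriched DMSO genes, those 2 were the ones whose peak was not lower with AVJ16. The 10 were picked by their DMSO value, which by itself favours a lower AVJ16 value. Of all shared peaks at 4 or more in DMSO, 41.0% were lower by more than 0.5, with a median difference of -0.37. Genes such as GNG5, RPL39, FTL and TUBA1B have processed copies elsewhere in the genome, and their values can include reads of these.

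The DMSO peaks that spanned the stop codon itself were led by SEC31A, an outer component of the COPII coat of secretory vesicles. Its peak from 13 nt before to 8 nt after the end of the stop codon had 6.02 in DMSO, and the overlapping AVJ16 peak had 4.87. The adjoining SEC31A peaks at 9 to 30 nt and 31 to 67 nt had 5.96 and 5.96 in DMSO, and 4.63 and 5.07 in AVJ16. FBXO7, an F-box adaptor of a ubiquitin ligase, had 5.92 from 51 nt before to 17 nt after, over the TCATTC printed above, and 4.18 in AVJ16. Its neighbours were less enriched, 4.29 on the coding side and 3.70 on the 3'UTR side in DMSO, and 3.66 and 3.61 in AVJ16. The FBXO7 DMSO value was clearly highest over the stop codon, while the SEC31A DMSO values were nearly level across these peaks. In both genes the AVJ16 values were lower at each of these positions.

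CCNG1, cyclin G1, a target gene of p53, had 7 stop codon peaks in each list, which tiled the window from 139 nt before to 129 nt after in DMSO, across a splice junction 3 nt past the stop codon. Its DMSO values from the coding to the 3'UTR end were 4.00, 4.20, 4.80, 5.68, 5.28, 5.43 and 5.01, highest at the peak over the stop codon. The overlapping AVJ16 peaks had 3.60, 3.81, 4.15, 4.15, 4.67, 5.08 and 4.91, where 1 AVJ16 peak was the partner of 2 DMSO peaks. The difference (AVJ16 minus DMSO) was largest at the stop codon, -1.53, and smallest at the 3'UTR end, -0.10. A further AVJ16 peak of 4.38 lay on the 3 nt between the stop codon and the junction.

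Tiled binding was also seen in EEF2, the elongation factor that moves the ribosome along the mRNA, and in TUBA1B, an alpha-tubulin, with 7 DMSO and 6 AVJ16 peaks each. The EEF2 values ran from 3.04 on the coding side to 4.18 at 88 to 118 nt in DMSO, and the AVJ16 value there was 4.19. TUBA1B had 4.61 in DMSO and 4.14 in AVJ16 at the stop codon, and 5.17 and 5.36 at 80 to 92 nt. In the AVJ16 list, SLC38A1, an amino acid transporter, had 7 peaks with values from 3.85 to 4.25, where the DMSO list had 4.

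**Figure D2:**
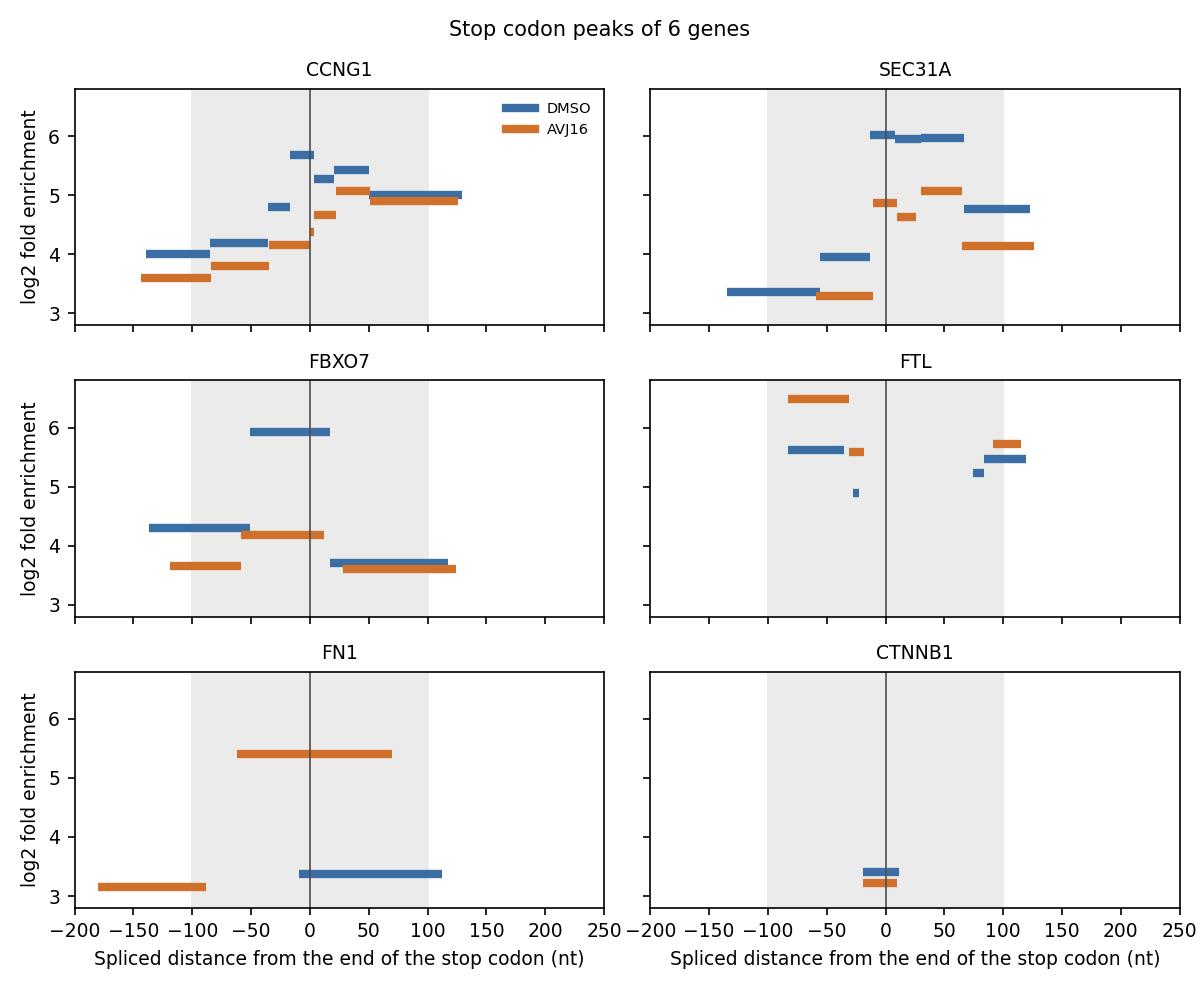
Stop codon peaks of 6 genes, each drawn as a bar over its spliced distance from the end of the stop codon (nt) at the height of its log2 fold enrichment, DMSO in blue and AVJ16 in orange, with the window shaded. CCNG1, SEC31A and FBXO7 have their highest DMSO peak over the stop codon (5.68, 6.02 and 5.92), FTL has its highest AVJ16 peak on the coding side (6.48), FN1 is higher with AVJ16 (5.40 against 3.37), and CTNNB1 has 1 peak of near equal width in each list.

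An overlapping peak anywhere in the other list was found for 1126 of the 1642 DMSO members (68.6%, 66.3 to 70.8%) and 1150 of the 1642 AVJ16 members (70.0%, 67.8 to 72.2%). The matching shares of other coding peaks were 64.2% and 57.4%, and of other 3'UTR peaks 70.7% and 75.1%. Sharing was more frequent at higher enrichment. Of the DMSO members at 3 to 3.5, 53.7% were shared, at 3.5 to 4 70.8%, and at 4 or more 88.8%, and other coding peaks gave 50.8%, 73.4% and 89.4%. The AVJ16 members on coding bases alone were shared least, 193 of 356 (54.2%, 49.0 to 59.3%), against 746 of 982 on 3'UTR bases alone (76.0%, 73.2 to 78.5%). The DMSO members ran from 64.2% to 70.2% across the same sides.

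Peaks without a partner had lower values, with medians of 3.36 in DMSO and 3.33 in AVJ16, against 3.75 and 3.60 for those with one. A few were strongly enriched. TDP1, a DNA repair phosphodiesterase, had 4.93 in DMSO as its sole exonic peak. In the AVJ16 list GNG4, a G protein gamma subunit, had 4.93 on the coding side. ALDH1A2, an enzyme of retinoic acid synthesis, had 5.08 over the stop codon, with no DMSO peak under it. FTL had a DMSO peak of 5.23 at 75 to 84 nt that no AVJ16 peak overlapped, although AVJ16 peaks lay before and after it. Of 403 genes with DMSO but no AVJ16 stop codon peaks, 268 (66.5%) had another exonic AVJ16 peak. Of 338 with AVJ16 stop codon peaks alone, 265 (78.4%) had another exonic DMSO peak. Both shares were below those of all transcripts with an exonic peak. Of these, 4667 in the DMSO list and 4225 in the AVJ16 list, 3718 had one in both lists. The 3718 include the 786 genes with stop codon peaks in both lists, which the 403 and 338 genes leave out by choice. That choice by itself favours the lower shares, so no conclusion is drawn from them.

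At the 1126 shared members the AVJ16 value was lower in the median by a small amount, with a median difference (AVJ16 minus DMSO) of -0.11 on the log2 scale (-0.16 to -0.08), an SD over peaks of 0.53 and a range from -1.74 to 2.03. It was lower by more than 0.5 at 259 peaks (23.0%, 20.6 to 25.5%), against 20.1% of all shared peaks, and higher by more than 0.5 at 114 (10.1%, 8.50 to 12.0%), against 12.6% of all. The remaining 753 (66.9%) were within 0.5. In other coding sequence 14.0% (12.6 to 15.6%) were lower and 11.4% higher, and in other 3'UTRs 21.1% (20.3 to 21.9%) and 13.2%. The interval of the lower share at the stop codon began just above the 20.1% of all shared peaks and overlapped that of other 3'UTRs, so the members stood close to the background, and no test of these differences was possible.

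**Figure D3:**
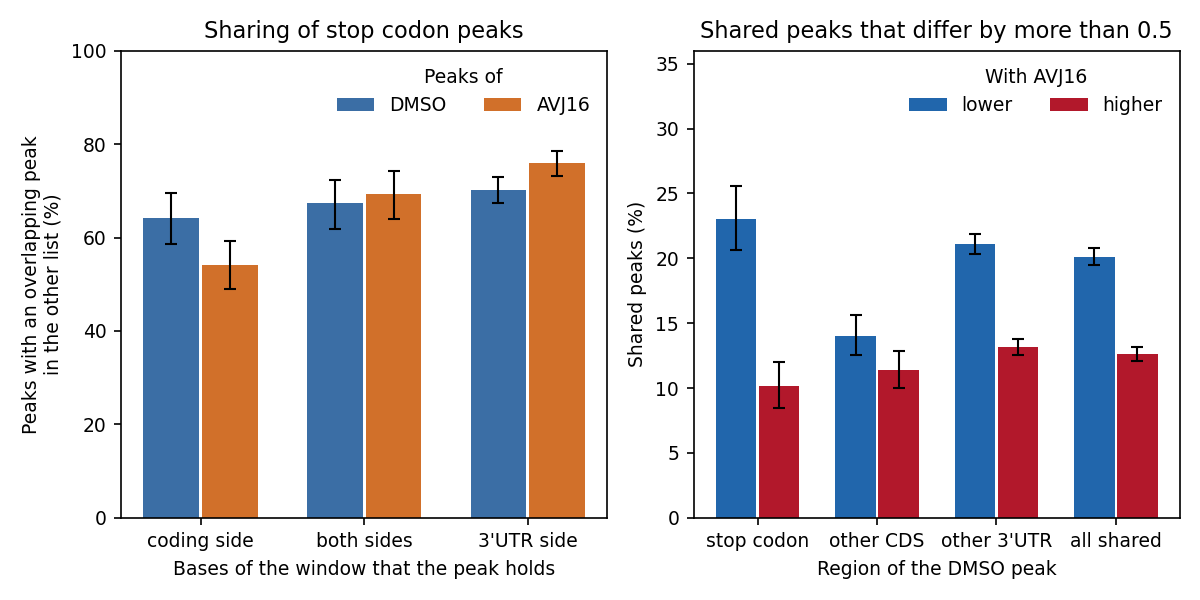
Left, share of stop codon peaks with an overlapping peak in the other list (%), by the side of the stop codon on which the peak's bases lie. Right, share of shared peaks (%) lower or higher with AVJ16 by more than 0.5 in log2 fold enrichment, by region of the DMSO peak. Bars are shares and error bars 95% Wilson intervals. Coding-side AVJ16 peaks were shared least (54.2%), and 23.0% of shared stop codon peaks were lower against 10.1% higher.

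The difference followed the level in the list that was read first. From the DMSO side, the median difference of the members was 0.15 at 3 to 3.5, -0.20 at 3.5 to 4 and -0.48 at 4 or more, where 191 of 396 (48.2%, 43.4 to 53.1%) were lower by more than 0.5. All shared peaks gave 0.17, -0.07 and -0.37, with 41.0% lower in the top class. No peak at 3 to 3.5 could be lower by more than 0.5, because both lists stop at 3. From the AVJ16 side, the members at 4 or more had a median difference of 0.11, with 23.6% higher and 13.0% lower, and all peaks 0.17, 28.3% and 12.0%. So highly enriched peaks of either list tended to be less enriched in the other, and the members stood lower than all peaks in the median from both sides. Across the 1126 peaks the DMSO and AVJ16 values had a Pearson r of 0.57, as a description of peaks that share libraries, and 0.59 over all shared peaks.

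**Figure D4:**
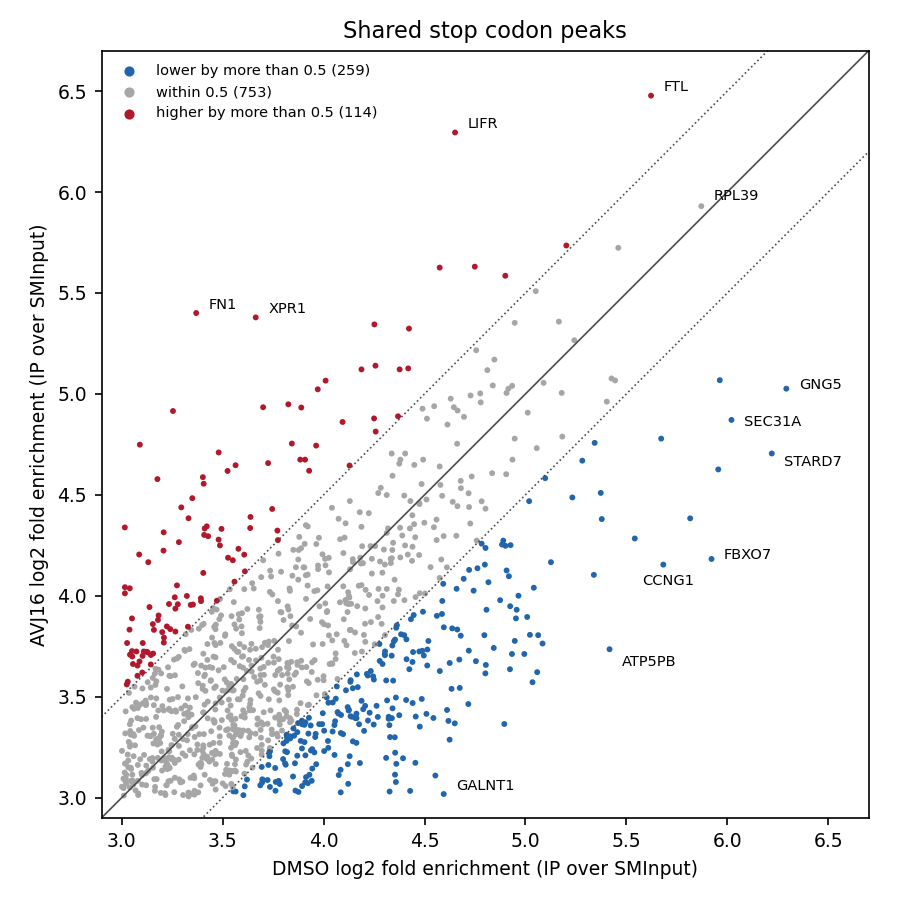
AVJ16 against DMSO log2 fold enrichment (IP over SMInput) at the 1126 shared stop codon peaks, with the line of equality and dotted lines at 0.5 above and below it. Blue peaks (259) are lower and red peaks (114) higher with AVJ16 by more than 0.5, grey peaks (753) are within 0.5, and the lower peaks dominate at high DMSO values.

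The largest differences towards DMSO beside FBXO7 (5.92 in DMSO, 4.18 in AVJ16, difference -1.74) and CCNG1 were in genes of metabolism, glycosylation and the cell cycle. ATP5PB, a subunit of mitochondrial ATP synthase, had 5.42 in DMSO and 3.74 in AVJ16 at 42 to 102 nt. GALNT1, which starts mucin-type O-glycosylation, had 4.60 and 3.02, and RB1, the retinoblastoma protein that restrains the cell cycle, 4.90 and 3.36. These were the 5 largest differences in that direction by the rule used to name genes, with no test behind them. Paired peaks can differ in width. The GALNT1 DMSO peak was 23 nt long and lay within a wider AVJ16 peak, whose 3.02 was near the lower limit of 3. The part of peak width in these differences was not tested.

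The largest differences in the other direction were in genes of varied function, again with no test behind them. FN1, the matrix protein fibronectin, had 3.37 in DMSO and 5.40 in AVJ16, a difference of 2.03, over the stop codon printed above. LIFR, the receptor of leukemia inhibitory factor, had 4.65 and 6.30 over the stop codon, while its next peak was level at 5.09 and 5.05. XPR1, a phosphate exporter, had 3.66 and 5.38. ELK3, an ETS transcription factor, had 3.25 and 4.92, and ALDH1A2 3.09 and 4.75, both on coding bases. Several other leading AVJ16 peaks were higher than their DMSO partners, but they were picked by their AVJ16 value, which favours this. Of all shared AVJ16 peaks at 4 or more, 28.3% were higher by more than 0.5, with a median difference of 0.17. RPL39 and RPL30, also among the leading AVJ16 peaks, differed by 0.06 and 0.46. MET, the receptor of hepatocyte growth factor, had 4.58 in DMSO and 5.63 in AVJ16, and CPS1, the first enzyme of the urea cycle, 4.47 and 5.92. The CPS1 DMSO peak was narrower than its AVJ16 partner and lay outside the window. GPX3, a secreted glutathione peroxidase, had 4.75 and 5.63, and ABHD17C, a depalmitoylase, 5.20 and 5.74.

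Of 806 genes with a shared member, 225 had a peak lower by more than 0.5 and 104 a higher one. Several members past that limit were found in 37 genes, and 7 of these had both directions. The same gene counts were not made over all genes with a shared peak, so these counts have no background. A gene with several members has more chances to be counted. Per peak, 23.0% of the members were lower and 10.1% higher, against 20.1% and 12.6% of all shared peaks. An AVJ16 partner overlapped more than 1 DMSO peak at 199 of the 1126 members. In genes whose members past the limit of 0.5 were all lower, the other exonic shared peaks had a median difference of -0.15 (-0.20 to -0.06, 173 genes). In those whose members past it were all higher, it was 0.01 (-0.10 to 0.12, 80 genes). Over all 636 genes with a shared member and other shared exonic peaks it was -0.08 (-0.11 to -0.04). The other peaks were lower in the median in 65.9%, 48.8% and 59.0% of these genes. The part of the RNA level of each gene was not tested, since the lists hold none.

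Some genes had stop codon peaks in both lists and no exonic peak outside the window in either, 71 in all. IFT52 was the most enriched. EBPL, related to the sterol isomerase EBP, had 4 DMSO peaks from 3.91 to 4.94 and 2 AVJ16 peaks of 4.67 and 5.32. GNG5B had 5.18 and 5.005, over a window that differed from that of GNG5 at 4 of 200 positions. PWP1, a nucleolar WD-repeat protein, had 3.97 in DMSO and 5.02 in AVJ16, and GARS1, the glycyl-tRNA synthetase, 4.93 and 4.25 at its main peak.

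Gene groups tied to translation, its end and RNA decay were described by counts. Over all genes with an exonic peak in either list, 29.5% had a peak at the stop codon, and the shared peaks of all regions had a median difference of -0.06, with 20.1% lower and 12.6% higher by more than 0.5. Each count below is small and is read beside these shares. None of 16 genes of termination and ribosome recycling had a stop codon peak, and 6 had another exonic peak. Of 18 genes of nonsense-mediated decay, the pathway that reads junctions downstream of stop codons, 3 of the 7 with an exonic peak had one at the stop codon: CASC3 and EIF4A3, core proteins of the exon junction complex, and RNPS1, which joins it. CASC3 had 4.32 in DMSO and 3.39 in AVJ16, RNPS1 3.96 and 3.51, and EIF4A3 3.62 and 3.18. The 3 were lower with AVJ16, by more than 0.5 in CASC3 alone. Of 22 m6A writers, erasers and readers, 12 had an exonic peak and 5 a stop codon peak. CBLL1, a writer-complex subunit, spanned its stop codon with 3.59 and 3.85, while ELAVL1 (3.32 and 3.30) and RBM15B (3.25), an RNA-binding protein that stabilises mRNAs and a writer-complex adaptor, had peaks in the AVJ16 list alone. YTHDF3, a cytoplasmic reader, had 3.40 in AVJ16, and the DMSO peak it overlapped, 3.51, lay outside the window.

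Of 88 ribosomal protein genes 27 had an exonic peak and 11 a stop codon peak, with 15 shared members, of which 3 were lower and 1 higher by more than 0.5 (median -0.15), close to the shares of all stop codon peaks, 23.0% and 10.1%. RPL15 had 4.59 and 3.91 over its stop codon, and RPLP0 4.21 over its stop codon in DMSO, where 2 AVJ16 peaks had 3.59 and 3.45. RPL23A had 3.93 and 4.62 in its 3'UTR, and RPL30 5.05 and 5.51. Of 70 initiation and elongation factor genes 31 had an exonic peak and 12 a stop codon peak, with 16 shared members (median 0.01, 1 lower and 2 higher by more than 0.5), against 20.1% lower and 12.6% higher of all shared peaks. EIF1B, an initiation factor, had 3.70 and 4.93 at 42 to 83 nt. EIF3L and EIF3F belong to the initiation factor that holds the small ribosomal subunit. EIF3L had 3.28 and 4.27 at 69 to 143 nt, and EIF3F 4.45 and 4.29 over its stop codon. Of 37 hnRNP and SR protein genes, 9 had an exonic peak and 2 a stop codon peak. HNRNPUL1 had coding peaks of 3.61 and 3.46 in DMSO and 3.23 in AVJ16, and SRSF12 3.26 in DMSO alone.

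Of 33 genes of MAPK and PI3K signalling and the cell cycle 23 had an exonic peak and 10 a stop codon peak, 9 in the DMSO list, 6 in the AVJ16 list and 5 in both, where 66.1% of all DMSO genes with a stop codon peak had one in the AVJ16 list. Its 6 shared members had a median difference of -0.28, with 2 lower (RB1 and CCND3, cyclin D3, 4.02 and 3.25) and 1 higher (MET), against 20.1% and 12.6% of all shared peaks. CCNA2, cyclin A2, had DMSO peaks of 3.54, 3.87 and 4.07 across its stop codon and 1 AVJ16 peak of 3.59 after it. NRAS had a peak in the AVJ16 list alone (3.80), and MAP2K1 and CDKN1A in the DMSO list alone (3.62 and 3.56).

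Of 13 genes singled out in the study, as targets of IGF2BP1 or as members of the WNT pathway, 9 had an exonic peak and 5 had a stop codon peak, all of them in the DMSO list and 3 in the AVJ16 list, near the 66.1% of all DMSO genes that had one in both. Some were named from earlier work, and the WNT genes, CTNNB1, LGR4 and TCF7 among them, from analyses of these cells that included this eCLIP, so their counts are not independent evidence. CTNNB1, beta-catenin, had 3.41 and 3.22 from 19 nt before to 11 nt after the end of its stop codon. LGR4, a receptor of R-spondins, had 4.36 and 3.50 over its stop codon, and BTRC, which marks beta-catenin for decay, 3.69 and 3.61 after it. MYC and TCF7, transcription factors of the pathway, had 3.65 and 3.15 in the DMSO list alone. The 4 shared members had a median difference of -0.32, and 1, in LGR4, was lower by more than 0.5. The study, in contrast, reports direct binding of LGR4 as upregulated by AVJ16, and that of CTNNB1 and TCF7 as downregulated. Those calls are per gene and by another measure, so a single stop codon peak cannot be set against them.

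The windows with a peak differed modestly in sequence from those of otherwise bound genes, which had exonic peaks outside the window only. Such a peak can lie in the same exon as the stop codon. TAA was the stop codon in 35.2% of 1527 windows with a peak in either list (32.8 to 37.6%), 31.0% of 3647 windows of otherwise bound genes (29.6 to 32.6%) and 28.4% of all MANE Select windows. TGA stood in 45.3%, 46.8% and 49.1%, and TAG in 19.6%, 22.2% and 22.4%. An A followed the stop codon in 34.3% (32.0 to 36.7%), 29.9% (28.5 to 31.4%) and 29.0%. The 100 nt of 3'UTR had a median GC content of 43%, 45% and 48%. A splice junction lay inside the window in 33.0%, 28.6% and 27.1%. The median 3'UTR was 1610 nt long with a peak, 2320 nt in otherwise bound genes and 1059 nt in all. These sets also differ in features such as RNA level that the lists do not give, and their part was not tested.

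Motifs were searched on the RNA strand in windows of the full 200 nt, 1515 with a peak, 3634 of otherwise bound genes and 17791 in all. GGAC, the core of the m6A consensus, was held by 54.5%, 55.3% and 57.7%, and GGACT, which contains it, by 21.8% (19.8 to 23.9%), 21.4% (20.05 to 22.7%) and 22.1%. TCATTC was held by 6.40% (5.28 to 7.75%), 4.27% (3.66 to 4.97%) and 4.70%. TCCAG (31.7%, 29.9% and 32.8%) and CCNGTT (14.7%, 13.3% and 12.9%) differed little. TTTCCGAA was in 0 of the 1515 (which allows a share of up to 0.198% at 3 counts and 0.253% by the Wilson interval), in 3 of the 3634 and in 18 of all.

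Within windows that held a peak, 34.3% of the bases lay inside DMSO peaks and 35.0% inside AVJ16 peaks. Of 73 TCATTC in the DMSO windows 35 lay whole inside peaks (47.9%), and of 76 in the AVJ16 windows 37 (48.7%). For GGAC the shares were 30.2% of 966 and 35.9% of 884, below the share of all bases in DMSO and close to it in AVJ16. TCCAG gave 34.4% and 36.3%, and CCNGTT 33.0% and 36.6%. A motif must lie whole inside a peak to count, and the lists share many windows, so these shares describe the same RNAs measured again. A match is a run of letters and not a mapped contact. The shares of all bases pool both sides of the stop codon, which peaks cover unequally. Motifs were not split by side, so the part of a motif's position in its share was not tested.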

How the data were processed

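IGF2BP1 eCLIP was done in H1299 cells with DMSO or AVJ16, with 2 IP and 2 SMInput libraries for each, grouped by the treatment in the labels. The authors trimmed reads with cutadapt, discarded repeat reads, mapped with STAR (hg38 per the labels), removed PCR duplicates, called peaks with CLIPper and normalised them to SMInput. The deposited lists give, for each peak of both replicates merged, a log2 fold enrichment and a −log10 p, neither recomputed here. The −log10 p stops at 400. How replicates were merged is not given in the sources used here, and the depth per sample is unknown. The study's methods name an older GENCODE release, of an earlier genome build, for region counts. GENCODE v44, on hg38, was used here.

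Peaks were placed on MANE Select transcripts and paired with the peak of the other list that overlapped them most. Position 1 is the first base after the stop codon and position -1 its last base. A difference over 0.5 counted as lower or higher. Shares have 95% Wilson intervals and medians order-statistic intervals, which cover counting error only. Python 3.11.15, numpy 2.4.6 and scipy 1.17.1 were used, and placement and pairing were tested on simulated transcripts. Named genes were the 10 most enriched of each list, the 5 largest differences each way, the 3 with most peaks, the 5 bound only at the stop codon, the 3 highest unshared peaks of each list and up to 4 of each gene list (all of the study's own genes). RPLP0, CCND3, NRAS, MAP2K1 and CDKN1A were added after their values were seen. Some genes that this rule names, and 1 sequence, are not reported here. The members and lists were chosen with earlier results of these data known. Alternatives were other windows, thresholds, transcripts, overlaps and pairings.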

Additional observations from a re-analysis of the deposited data

How the results depend on the processing

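No paired analysis was possible because each list merges its replicates and no test was run, and for the same reason no replicate could be left out. Of 93 alternative values, 67 stayed within the counting interval of the reported one (within 1.5 times for counts), 26 did not, and none of the median differences changed sign. Windows of 50 nt gave 936 DMSO and 926 AVJ16 peaks, of which 34.2% and 34.8% overlapped the stop codon itself, and windows of 200 nt gave 3182 and 3159, with 10.1% and 10.2% over the stop codon and 72.3% of AVJ16 peaks shared. With the peak centre in the window, 28.5% and 27.7% overlapped the stop codon. Keeping peaks of 4 or more on the log2 fold enrichment scale, 446 and 340 peaks remained, 15.6% of the AVJ16 peaks overlapped the stop codon, 49.3% and 61.8% were shared, and 18.6% of shared peaks were lower. At a −log10 p of at least 5, 72.3% of AVJ16 peaks were shared. Joining touching peaks gave 22.9% and 23.7% over the stop codon and 14.5% of shared sites higher. Overlap of at least 50% of both peaks left 53.5% and 52.4% shared. A limit of 1 left 4.88% lower and 2.40% higher. Centring on the median difference of all shared peaks gave 19.6% lower, with 11.9% higher. Restricting the coverage to transcripts bound in both lists, chosen after seeing the data, raised it on the coding side from 5.06% to 5.79% in DMSO and from 6.19% to 6.62% in AVJ16, and on the 3'UTR side from 12.4% to 14.0% and from 12.5% to 13.6%.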
